A study of Mus musculus with 2 samples.

Results

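The genes described here are 9 integrin chains and 1 collagen receptor: the α chains Itgam, Itgal, Itgax, Itga4 and Itga6, the β chains Itgb2, Itgb1 and Itgb7, the β2-like gene Itgb2l, and Lair1. They were chosen by name, with earlier results of these data known, so shares of all genes set beside them describe and do not test. These genes are 10 of the 13211 listed for bone marrow cells profiled by single-cell RNA-sequencing, and all were listed for both libraries. The study deleted type I collagen (Col1) from cells that express Fsp1 and compared the marrow of these mice with that of littermates. Col1a1fspKO mice carried Fsp1-Cre;Col1a1flox/flox, with Cre under the promoter of Fsp1 (S100a4), and the WT littermates were Cre-negative;Col1a1flox/flox, so that both genotypes carry the loxP-flanked Col1a1 allele. For each genotype, marrow was flushed from the femurs and tibias of 2 untreated mice at 2 months of age, pooled, sorted for live cells and made into 1 library with 10x Genomics 3′ chemistry, which counts captured mRNA molecules as unique molecular identifiers (UMIs).

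Integrins are membrane proteins made of an α and a β chain that bind matrix proteins and counter-receptors on other cells. Leukocytes use the β2 family, in which CD18 (Itgb2) joins CD11b (Itgam), CD11a (Itgal) or CD11c (Itgax), to hold to endothelium, to migrate and to take up opsonized particles. The α4 chain pairs with β1 to bind VCAM1 and fibronectin and with β7 to bind MAdCAM1, and α6 with β1 binds laminin. Itgb2l encodes pactolus, a β2-like protein of neutrophils and their precursors. Lair1 is an inhibitory receptor of the immunoglobulin family whose ligands are collagens.

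The promoters of 4 genes are shown because these genes were highest in different lineages: Itgam and Itgb2l in neutrophil-like cells, Itgb7 in monocyte-like cells and Lair1 in cells like plasmacytoid dendritic cells (pDC). RefSeq promoter windows on GRCm38.p6, from 250 bases before to 50 bases after the start site and read in the direction of the gene, matched 7 of the 10 genes. Capitals mark GAGGAA, core letters bound by the myeloid factor PU.1, and TTGCNNAA, a form of the C/EBP motif, each searched on both strands.
Itgam promoter, chr7:128062390-128062689, plus strand: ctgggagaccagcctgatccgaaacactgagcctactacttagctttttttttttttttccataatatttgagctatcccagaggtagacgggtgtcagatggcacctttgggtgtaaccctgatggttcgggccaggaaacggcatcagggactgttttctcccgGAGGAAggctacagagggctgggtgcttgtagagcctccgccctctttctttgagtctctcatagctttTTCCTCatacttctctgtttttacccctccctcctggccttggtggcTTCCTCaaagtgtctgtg
Itgb2l promoter, chr16:96443565-96443864, minus strand: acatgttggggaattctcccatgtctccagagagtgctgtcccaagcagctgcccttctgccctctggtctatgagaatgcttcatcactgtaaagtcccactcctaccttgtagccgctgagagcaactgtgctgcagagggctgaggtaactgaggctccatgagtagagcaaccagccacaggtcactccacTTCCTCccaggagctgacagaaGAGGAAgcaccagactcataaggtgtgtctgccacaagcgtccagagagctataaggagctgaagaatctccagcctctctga
Itgb7 promoter, chr15:102231886-102232185, minus strand: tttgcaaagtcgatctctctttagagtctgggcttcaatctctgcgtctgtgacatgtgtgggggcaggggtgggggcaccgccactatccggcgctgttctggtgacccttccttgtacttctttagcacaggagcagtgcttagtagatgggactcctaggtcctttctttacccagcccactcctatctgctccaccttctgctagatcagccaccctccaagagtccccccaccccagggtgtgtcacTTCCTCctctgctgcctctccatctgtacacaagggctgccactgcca
Lair1 promoter, chr7:4063155-4063454, minus strand: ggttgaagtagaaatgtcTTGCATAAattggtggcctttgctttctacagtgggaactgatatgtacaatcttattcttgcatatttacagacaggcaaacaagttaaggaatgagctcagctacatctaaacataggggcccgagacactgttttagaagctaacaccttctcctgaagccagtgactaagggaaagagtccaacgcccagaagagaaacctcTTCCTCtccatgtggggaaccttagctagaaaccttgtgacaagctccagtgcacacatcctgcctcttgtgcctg
The Itgam window held GAGGAA at 3 places and the Itgb2l window at 2, while those of Itgb7 and Lair1 held it once each. GAGGAA occurs in 28.3% of the 32851 promoter windows of the table. TTGCNNAA occurs in 10.8% of windows and, among the 7 genes, in that of Lair1 alone. Letters of the RUNX motif (TGTGGT), of the motif of erythroid zinc-finger factors (AGATAA) and of an E-box (CAGGTG) were searched as well and were in none of the 4 printed windows, against 16.8%, 11.2% and 20.2% of all windows. Of the windows not printed, that of Itgax held TGTGGT and AGATAA and that of Itga4 held TGTGGT. Among these, GAGGAA was in the window of Itgb1 and not in those of Itgax and Itga4. A match describes letters and no match says only that they are not in this window.

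On GRCm38 (mm10 in the submitters' processing notes), with GENCODE M21 gene models, Itgam (128062640 to 128118491), Itgal (127296260 to 127335138) and Itgax (128129547 to 128150657) lie on the plus strand of chromosome 7. Lair1 (4003402 to 4063204) lies on the minus strand of the same chromosome. Itgb2l spans 96422288 to 96443619 on the minus strand of chromosome 16 and Itgb7 102215995 to 102231944 on that of chromosome 15. The 3′ end of Itgam overlaps the model Gm49368 on the same strand, so reads there could have been given to either model or dropped, and the level of Itgam is uncertain to that extent.

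The Col1a1fspKO library held 1309 cells and 8647722 UMIs, and the WT library 1169 cells and 8624469 UMIs, with 2 cell barcodes found in both. The targeted gene Col1a1 had 3 UMIs in Col1a1fspKO and was not listed for WT, so these cells do not check the deletion. S100a4, which drives the Cre, stood at 1114 and 1311 counts per 1000000 UMIs (CPM) in early and late monocyte-like cells of Col1a1fspKO and at 2.24 CPM in its Retnlg-high neutrophil-like cells. Cells were assigned to types by fixed markers, and 12 types had at least 20 cells in each library: progenitor-like cells (Mpo), 4 neutrophil-like stages, early and late monocyte-like, pDC-like, T/NK-like, early and late B-like and erythroid-like cells. The neutrophil-like stages run from preneutrophil-like (Fcnb) through immature (Ltf, Camp) and maturing (Mmp8, Mmp9) to Retnlg-high (Retnlg, Cxcr2). Each type had more of its own markers than of another class among its 10 leading genes, and 160 of 2478 cells (6.46%) met no type. Stages are ranges, since 239 of 1774 staged cells had a score within 0.1 of another stage.

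With 1 library per genotype there is no spread between mice, and no test of the genotypes was made. Intervals are exact 95% intervals, Poisson for levels and binomial (Clopper-Pearson) for ratios and shares, and they cover counting error alone. Beside a count of 0 the limit given is that of 3 counts, which lies below the upper end of the exact interval. A gene is called past the fold when the ratio of CPM is above 1.5 or below its inverse and the gene has at least 50 UMIs over both libraries, or, between stages, at least 50 UMIs over both stages in each library. Paired values are given for Col1a1fspKO first and WT second. Levels are compared between cell types and libraries for 1 gene at a time and not between genes.

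Among the 12 compared types, Itgam, Itgb2 and Itgb2l were highest in neutrophil-like stages, Itgb7 and Itga4 in monocyte-like cells, Itgb1 in T/NK-like cells and Lair1 in pDC-like cells. The highest type was the same in both libraries for 5 of the 10 genes, namely Itgb2, Itgax, Itga4, Itgb1 and Lair1. Among these 5, the interval of first over second left out 1 in both libraries for Lair1 alone, and in WT for Itgb1 too. For Itgam, Itgb2l and Itgb7 the top place passed to another stage of the same lineage, with an interval of first over second that held 1 in both libraries.

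**Figure D1:**
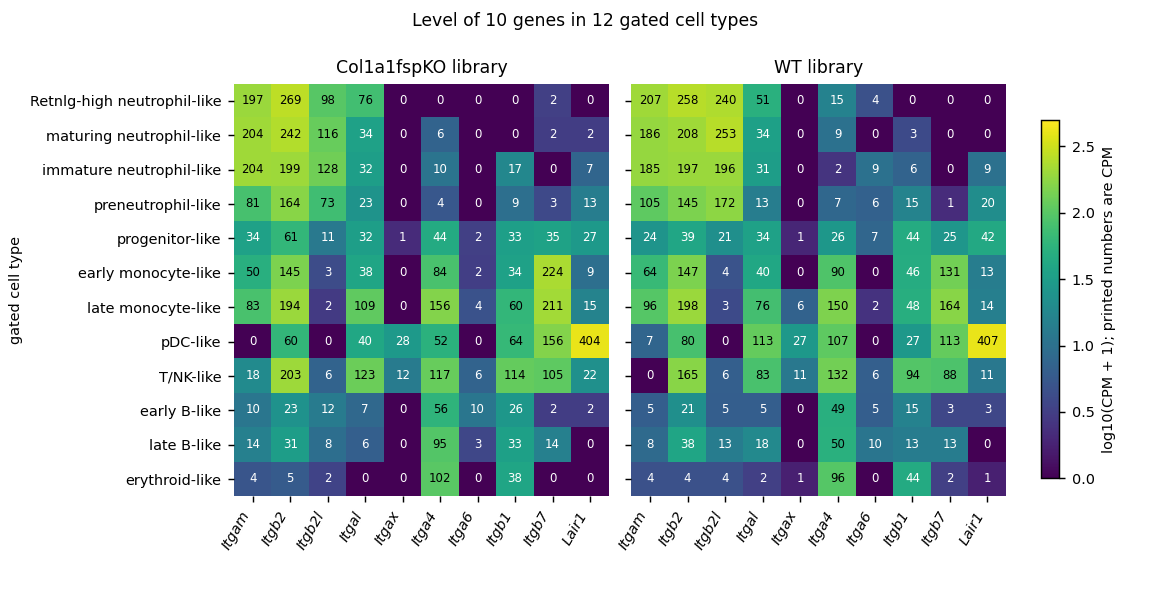
Level of the 10 genes (columns) in the 12 cell types (rows) of each library, printed in CPM over a colour scale of log10(CPM + 1). Itgb2l is bright in the 4 neutrophil-like rows, and Lair1 in the pDC-like row at 404 and 407 CPM.

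Itgam, the CD11b chain found on most myeloid cells, was low in progenitor-like cells and reached a plateau at the immature stage. For Col1a1fspKO its level was 33.9 (22.8 to 48.3) CPM in progenitor-like, 81.3 (61.4 to 106) in preneutrophil-like, 204 (169 to 243) in immature, 204 (166 to 249) in maturing and 197 (158 to 243) in Retnlg-high cells. For WT it was 24.1 (15.6 to 35.6), 105 (84.2 to 129), 185 (153 to 221), 186 (142 to 239) and 207 (157 to 269) CPM in the same order. The last 3 stages had overlapping intervals and lay above the first 2 in both libraries. Early monocyte-like cells stood at 49.5 and 64.3 CPM and late monocyte-like cells at 82.9 and 96.0 CPM, under those 3 stages. In pDC-like cells 0 and 1 UMIs were counted, and the 0 in 47 cells has a limit of 6.38% of cells with a UMI.

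Itgb2, the β chain shared by the CD11 integrins, rose over the same path. Its levels were 61.0 (45.8 to 79.5) and 38.6 (27.6 to 52.6) CPM in progenitor-like cells, then 164 and 145 in preneutrophil-like, 199 and 197 in immature, 242 and 208 in maturing and 269 (223 to 321) and 258 (202 to 326) CPM in Retnlg-high cells. Neighbouring stages from preneutrophil-like onwards had overlapping intervals, while the ends of the path lay apart. Itgb2 was also at 203 and 165 CPM in T/NK-like and 194 and 198 CPM in late monocyte-like cells, and at 5.0 and 3.72 CPM in erythroid-like cells.

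From preneutrophil-like to Retnlg-high cells, Itgam and Itgb2 were past the fold upwards in both libraries, 2 of 3 genes with enough UMIs, where 15.8% of 1549 genes were. The ratio of Itgam was 2.42 (1.71 to 3.45) and 1.98 (1.39 to 2.79), and that of Itgb2 1.64 (1.26 to 2.14) and 1.78 (1.31 to 2.41). With types taken from clusters, the log2 ratio of Itgam in WT was 0.22 instead of 0.98 and left the fold. The step from progenitor-like to preneutrophil-like was past the fold upwards for Itgam, Itgb2 and Itgb2l, the 3 genes with enough UMIs, where 11.6% of genes were. The minimum favours genes that are high in preneutrophil-like cells, so these 3 do not stand for all members. Itgb2l met it in Col1a1fspKO with 50 UMIs there against 10 in progenitor-like cells. Under the minimum in at least 1 library, Itga4 had ratios of 0.0990 and 0.271, Itgb7 of 0.0830 and 0.0469 and Itgb1 of 0.266 and 0.345. From preneutrophil-like to immature, Itgam alone of Itgam, Itgb2 and Itgb2l was past the fold (6.0% of genes). At the later steps 0 of 3 were (5.35% and 2.89% of genes).

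Itgal, the CD11a chain that binds ICAM1 with CD18, had another order. It was highest in T/NK-like cells of Col1a1fspKO, at 123 (88.1 to 168) CPM, and in pDC-like cells of WT, at 113 (66.1 to 182) CPM. The first 2 types did not differ beyond their intervals in either library. In pDC-like cells of Col1a1fspKO it was 40.0 (19.2 to 73.5) CPM, and the 10 and 17 UMIs of these cells were under the minimum for a call between libraries. Late monocyte-like cells had 109 and 76.5 CPM against 37.7 and 39.9 CPM in early monocyte-like cells. On the neutrophil path its levels were 23.2 (13.3 to 37.7) and 13 (6.47 to 23.2) CPM in preneutrophil-like and 76.1 (52.7 to 106) and 50.9 (27.8 to 85.5) CPM in Retnlg-high cells. In WT these stages held 11 and 14 UMIs, under the minimum for a single library, and the ratio of Retnlg-high over preneutrophil-like cells was 3.27 (1.76 to 6.35) for Col1a1fspKO and 3.93 (1.66 to 9.57) for WT. With a minimum of 20 UMIs in each library Itgal counts as past the fold as well.

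The share of Itgam in the summed UMIs of Itgam and Itgal was highest in neutrophil-like and lowest in T/NK-like and pDC-like cells among types with at least 10 summed UMIs in both libraries. In the neutrophil-like stages it was 72.1% to 86.6% for Col1a1fspKO and 80.3% to 89.0% for WT. It was 56.8% and 61.7% in early monocyte-like, 43.1% and 55.7% in late monocyte-like, 51.7% and 41.7% in progenitor-like and 58.8% and 50% in early B-like cells, which these values do not separate. It was 13% and 0% in T/NK-like and 0% and 5.56% in pDC-like cells. Capture differs between genes, so these shares compare cell types and do not give a ratio of proteins.

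Itgb2l was lower in the Col1a1fspKO library at every neutrophil-like stage. Its levels there were 72.6 (53.9 to 95.7) CPM in preneutrophil-like, 128 (101 to 159) in immature, 116 (87.3 to 151) in maturing and 98.5 (71.6 to 132) in Retnlg-high cells. The WT cells had 172 (145 to 202), 196 (163 to 233), 253 (202 to 314) and 240.1 (186 to 305) CPM. At none of the 4 stages did the intervals of the libraries overlap. The ratios of Col1a1fspKO over WT were 0.422 (0.30 to 0.586), 0.651 (0.484 to 0.870), 0.458 (0.319 to 0.651) and 0.410 (0.274 to 0.610) in this order. They are past the fold downwards at all 4 stages, where 6.64%, 5.37%, 4.23% and 4.85% of genes were. By ratio, Itgb2l was number 7 from the lowest of 2275 genes in preneutrophil-like, 76 of 1601 in immature, 4 of 1134 in maturing and 2 of 1073 in Retnlg-high cells. Over all neutrophil-like cells, 494 and 402 in number, the ratio was 0.508 (0.430 to 0.598), against 8.61% of genes past the fold downwards. In immature cells the log2 ratio of −0.62 became −0.57 with cells weighted equally and −0.41 in a single draw of 2500 UMIs per cell, both within the fold. Progenitor-like cells had 11.3 (5.41 to 20.8) and 21.2 (13.3 to 32.1) CPM, from 10 and 22 UMIs.

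**Figure D2:**
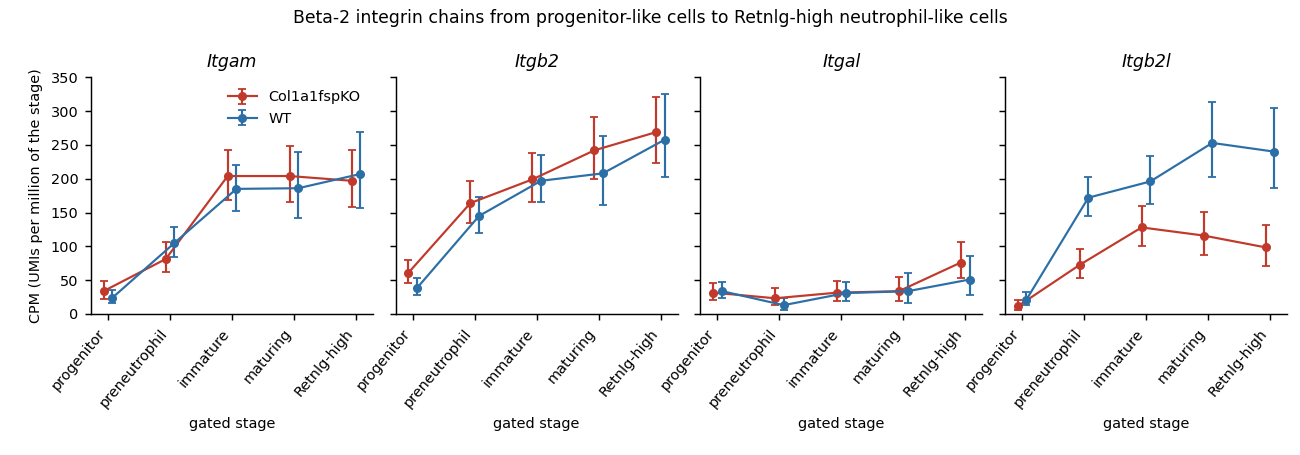
Level in CPM (y axis) of Itgam, Itgb2, Itgal and Itgb2l from progenitor-like to Retnlg-high cells (x axis) in both libraries, with exact Poisson 95% intervals as bars. The intervals of the libraries are apart for Itgb2l at all 4 neutrophil-like stages, at 98.5 and 240.1 CPM in Retnlg-high cells, and overlap for the other 3 genes.

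The difference in Itgb2l lay in many cells. A UMI was seen in 38.9% of 95 preneutrophil-like cells of Col1a1fspKO and 67.9% of 106 of WT, and 2 against 18 of these cells held 3 or more. In Retnlg-high cells it was seen in 28.6% of 133 and 51.9% of 77, with medians of 3110 and 3453 UMIs per cell. With every cell thinned to 2500 UMIs, the expected shares were 17.1 and 34.3% in preneutrophil-like, 25.9 and 37.2% in immature, 24.1 and 45.1% in maturing and 21.7 and 42.5% in Retnlg-high cells. In erythroid-like cells, a type with little Itgb2l, 2.08 and 5.05% of cells had a UMI, with medians of 9446 and 11812 UMIs per cell. In early B-like cells the shares were 4.58 and 3.51%, and the level of background RNA was not estimated. The WT preneutrophil-like cell with most Itgb2l held 11 of 146 UMIs, and without the top cell of each library the log2 ratio was −1.23 against −1.24. Another WT preneutrophil-like cell held 114 UMIs of stroma markers, 106 of them Cxcl12, and without it the log2 ratio was −1.24.

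In the same cells Itgb2 had ratios of 1.01 to 1.17 and Itgam of 0.776 to 1.1 over the 4 stages, and all 8 intervals held 1. Itgb2l therefore made up 26.8% to 39.1% of the summed UMIs of Itgb2l and Itgb2 for Col1a1fspKO and 48.2% to 55.0% for WT. Of 4353 words of 31 bases in the annotated transcripts of Itgb2l, 0 occur in those of Itgb2. Reads were not examined, and their assignment between the related genes was not tested. Over the 12 types, the genes most like Itgb2l by Pearson's r of log2(CPM + 10) were Chil1 (0.991 in WT, 0.984 in Col1a1fspKO), Ppp1r42 (0.99, 0.975) and Mapk13 (0.988, 0.964). Between the libraries these 3 genes had ratios of 1.03 (0.910 to 1.16), 0.938 (0.759 to 1.16) and 0.881 (0.774 to 1.0) in all neutrophil-like cells. Of 6 tested genes within 1000000 bases of Itgb2l, Wrb alone was past the fold over all cells, at 0.617 (0.363 to 1.03). Among all genes, 5.93% of 9725 were past it. Hmgn1 had 0.903 (0.848 to 0.962), and Sh3bgr, under the UMI minimum with 28 and 13 UMIs, had 2.15 (1.08 to 4.52). Itgb2l overlaps Igsf5 on the opposite strand, which was not analysed here.

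Itgb7, the β chain of the gut-homing integrin α4β7, was highest in monocyte-like cells. Its levels were 224 (195 to 257) and 131 (107 to 159) CPM in early monocyte-like, 211 (174 to 254) and 164 (134 to 197) in late monocyte-like, 156 (111 to 213) and 113 (66.1 to 182) in pDC-like and 105 (72.6 to 146) and 88.2 (50.4 to 143) CPM in T/NK-like cells. Progenitor-like cells had 35.0 and 25.1 CPM. The 4 neutrophil-like stages together held 4 and 1 UMIs. Monocyte-like cells made up 17.3% and 20.4% of cells and held 64.9% and 64.5% of the Itgb7 UMIs.

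Between the libraries, Itgb7 was past the fold in early monocyte-like cells at 1.71 (1.34 to 2.19), from 208 and 102 UMIs, 1 of 6 genes tested there, where 3.94% of 3456 genes were past it upwards. Late monocyte-like cells gave 1.29 (0.982 to 1.7), progenitor-like 1.39 (0.801 to 2.45), pDC-like 1.37 (0.759 to 2.59) and T/NK-like cells 1.19 (0.638 to 2.30). The ratio was thus above 1 in all 5 tested types, with an interval that left out 1 in early monocyte-like cells alone. In pDC-like cells a single cell of Col1a1fspKO held 15 of 39 UMIs. Itgb7 was seen in 72.2 and 54.1% of early monocyte-like cells, with medians of 6430.5 and 6554 UMIs per cell, and at 2500 UMIs in an expected 41.6 and 27%. In preneutrophil-like cells, a type with little Itgb7, the share was 2.11 and 0.943%, with medians of 7167 and 7752 UMIs.

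In early monocyte-like cells the log2 ratio of Itgb7 was 0.77, and 0.31 in a single draw of 2500 UMIs per cell, which left the fold. The mean of single-cell CPM, which such draws approach, gave 0.73. Summed neutrophil markers stood at 11443 and 6522 CPM in early monocyte-like and at 7990.4 and 11635 CPM in late monocyte-like cells. Itgb7 was near 0 in neutrophil-like cells, and whether neutrophil RNA bears on its ratio was not tested. The genes most like Itgb7 over cell types were Ahnak (r = 0.978 in WT, 0.996 in Col1a1fspKO), Rrbp1 (0.974, 0.940) and Fam69a (0.962, 0.720). Their ratios between the libraries in early monocyte-like cells were 0.891 (0.742 to 1.07), 1.1 (0.846 to 1.42) and 1.04 (0.735 to 1.48).

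Itgb7 and Itgb1 encode the β chains that pair with α4, and the share of Itgb7 in their summed UMIs ranged widely over the types. In early monocyte-like cells it was 86.7% (81.7 to 90.7) for Col1a1fspKO and 73.9% (65.8 to 81.0) for WT, which do not overlap. Late monocyte-like cells stood at 77.8% and 77.3% and pDC-like cells at 70.9% (57.1 to 82.4) and 81.0% (58.1 to 94.6). In WT the pDC-like share was within counting error of both monocyte-like shares. In Col1a1fspKO it lay below the early monocyte-like share, with intervals that overlapped only from 81.7% to 82.4%. T/NK-like cells were at 47.9% and 48.5% and progenitor-like cells at 51.7% and 36.1%. Erythroid-like cells were at the other end with 0% and 4.84%, and early B-like cells had 7.41% and 15.8%.

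**Figure D3:**
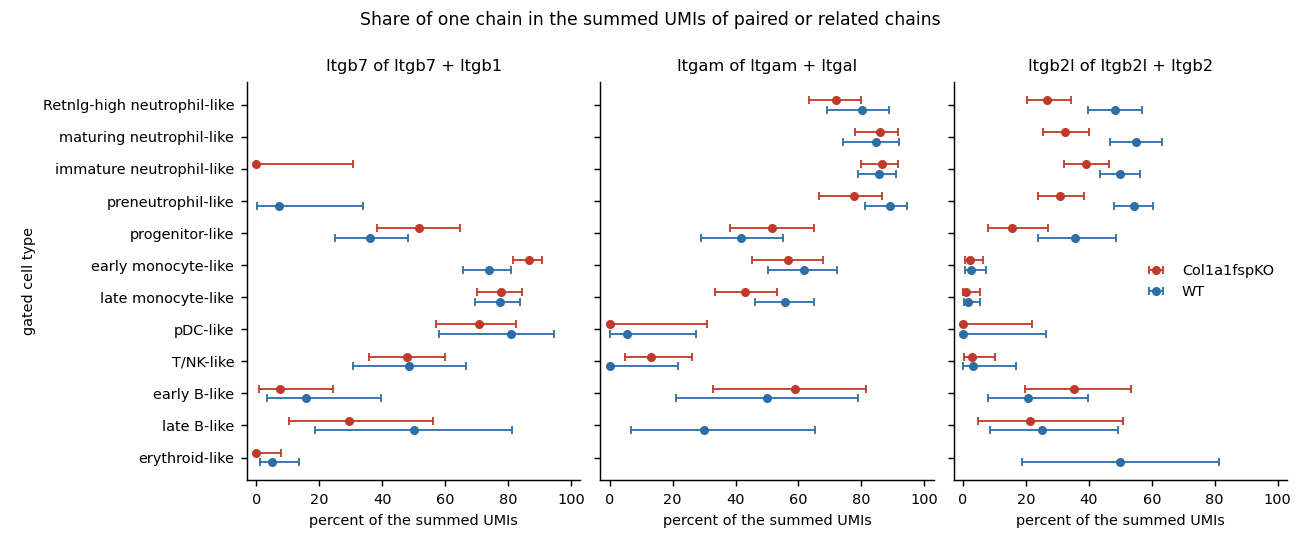
Share in percent (x axis) of Itgb7 in Itgb7 and Itgb1, of Itgam in Itgam and Itgal, and of Itgb2l in Itgb2l and Itgb2 by cell type (y axis), with exact 95% intervals, for points with at least 10 summed UMIs. Itgb7 takes most UMIs in monocyte-like and pDC-like cells and few in erythroid-like cells, and the share of Itgb2l in neutrophil-like stages is lower for Col1a1fspKO (26.8% to 39.1%) than for WT (48.2% to 55.0%).

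Itga4, the α chain of VLA-4, which holds progenitors and erythroblasts to VCAM1, was found in most lineages and was scarce in neutrophil-like cells. Its levels were 156 (125 to 194) and 150.0 (122 to 182) CPM in late monocyte-like, 117 and 132 in T/NK-like, 102 (84.3 to 121) and 96.1 (80.2 to 114) in erythroid-like and 84.0 and 90.0 CPM in early monocyte-like cells. The first 2 did not differ beyond their intervals. The neutrophil-like stages together had 5.42 and 6.67 CPM. From early to late monocyte-like cells Itga4 and Itgal were past the fold upwards in both libraries, 2 of 6 tested, where 4.97% of 2779 genes were. The ratio was 1.86 (1.35 to 2.57) and 1.67 (1.22 to 2.29) for Itga4 and 2.90 (1.87 to 4.54) and 1.92 (1.2 to 3.10) for Itgal.

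Itgb1, the β chain with the widest choice of partners, was highest among the compared types in T/NK-like cells at 114 (80.3 to 157) and 93.7 (54.6 to 150.1) CPM, and had 63.9 and 26.7 in pDC-like, 60.3 and 48.0 in late monocyte-like, 37.5 and 44.0 in erythroid-like and 32.7 and 44.4 CPM in progenitor-like cells. First over second was 1.78 (0.968 to 3.43) for Col1a1fspKO, which holds 1, and 1.95 (1.02 to 3.62) for WT. The 12 and 20 basophil-like cells, too few to compare, had 71.3 (30.8 to 140.4) and 145 (86.0 to 229) CPM. The neutrophil-like stages together held 16 and 18 UMIs, and Retnlg-high cells 0 in both libraries, with a limit of 6.71 and 10.9 CPM. Itga6, the laminin-binding chain, had 26 and 35 UMIs over all cells and at most 10.4 CPM in a type, with 0 UMIs in the neutrophil-like stages of Col1a1fspKO and 12 in those of WT. Itgax, the CD11c chain of dendritic cells, had 15 and 13 UMIs over all cells and was highest in pDC-like cells at 28.0 (11.2 to 57.6) and 26.7 (7.27 to 68.4) CPM, from 7 and 4 UMIs. Both genes had too few UMIs to order the types.

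Lair1 was concentrated in pDC-like cells, the interferon-producing dendritic cells of marrow. They had 404 (329 to 490.5) and 407 (311 to 523) CPM, against 27.1 (17.4 to 40.3) and 41.5 (30 to 55.9) CPM in progenitor-like cells, which came next among the compared types in both libraries. The few basophil-like cells had more than progenitor-like cells, at 53.5 and 96.8 CPM. The level in pDC-like cells was 14.9 (9.47 to 24.3) times that in progenitor-like cells for Col1a1fspKO and 9.81 (6.53 to 14.8) times for WT. Lair1 was seen in 80.9 and 75.0% of 47 and 32 pDC-like cells, with medians of 4532 and 4406 UMIs per cell, and at 2500 UMIs in an expected 61.6 and 59.9%. In erythroid-like cells, a type with little Lair1, 0 and 1.01% had a UMI. The pDC-like cells were 3.59% and 2.74% of cells and held 54.0% and 34.5% of the Lair1 UMIs. Globin RNA in pDC-like cells stood at 37306 and 10165 CPM. Lair1 had 0 and 1 UMIs in erythroid-like cells, and whether globin RNA bears on its level was not tested.

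Along the neutrophil path Lair1 was at 27.1 and 41.5 CPM in progenitor-like, 13.1 and 20 in preneutrophil-like, 6.62 and 9.26 in immature and 2.11 and 0 CPM in maturing cells. Retnlg-high cells held 0 UMIs, with a limit of 6.71 and 10.9 CPM. No stage stood above the one before it in either library. Of these steps, the one from progenitor-like to preneutrophil-like in WT alone had enough UMIs, at 0.483 (0.258 to 0.864). Monocyte-like cells had 8.62 to 15.1 CPM. Between the libraries Lair1 had a ratio of 0.991 (0.715 to 1.39) in pDC-like and 0.653 (0.379 to 1.1) in progenitor-like cells, the second past the fold with an interval that holds 1. Its log2 ratio of −0.62 became −0.53 with a stricter margin between lineages and −0.38 with types assigned on thinned cells, both within the fold. The genes most like Lair1 were Dap (r = 0.935 in WT, 0.898 in Col1a1fspKO), Syngr2 (0.878, 0.846) and Fdps (0.864, 0.761). In pDC-like cells their ratios between the libraries were 0.667 (0.502 to 0.889), 0.910 (0.633 to 1.32) and 1.88 (1.01 to 3.72).

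**Figure D4:**
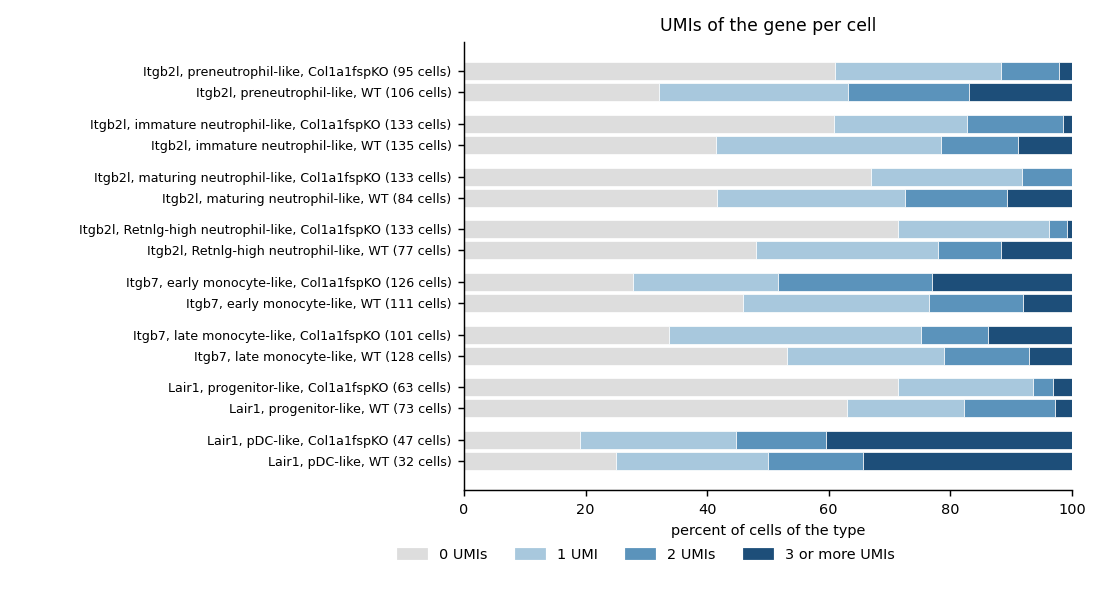
Percent of cells (x axis) with 0, 1, 2 or at least 3 UMIs of Itgb2l, Itgb7 or Lair1 in the types where each is highest, by library. Lair1 is shown in progenitor-like cells as well. Cells with 0 UMIs are the larger share for Col1a1fspKO with Itgb2l at every neutrophil-like stage and for WT with Itgb7 in both monocyte-like types, and for Lair1 in pDC-like cells they are 9 of 47 and 8 of 32.

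Among the other members the nearest genes, over the same 12 types and 3725 candidate genes, were G6pdx for Itgam (r = 0.979 in WT, 0.961 in Col1a1fspKO), Klf6 for Itgb2 (0.961, 0.935), Tmem234 for Itga4 (0.954, 0.884) and Scamp3 for Itgb1 (0.899, 0.836). For Itga6 the nearest gene in WT, Ino80d, had r = 0.787 there and −0.121 in Col1a1fspKO, and for Itgax it was Saraf (0.887, 0.874). The types of a library share its preparation and depth, so these are descriptions.

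Over all cells, 2 of 9 genes with enough UMIs were past the fold between the libraries, where 5.93% of 9725 genes were. Itgb2l, at 32.6 and 58.8 CPM, gave 0.555 (0.478 to 0.643). Itgb7, at 57.0 and 37.9 CPM, gave 1.5 (1.30 to 1.73), which lies at the edge of the fold. Its log2 ratio of 0.59 left the fold at 0.38 with cells weighted equally, at 0.13 in thinned cells and at 0.58 when cells with under 500 genes or over 5% mitochondrial UMIs were removed. The other 7 genes had ratios of 0.741 to 1.15, and Itgb2 at 1.15 (1.05 to 1.27) was the one whose interval left out 1. The mix of types differed too. Neutrophil-like cells, where Itgb2l was lower at each stage in Col1a1fspKO, were 494 of 1309 and 402 of 1169 cells. Monocyte-like cells, which held most Itgb7 UMIs, were 17.3% and 20.4% of cells.

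Within types, 42 of 120 pairs of gene and type had enough UMIs and 9 were past the fold, 4 upwards and 5 downwards, where 9.46% of 28084 pairs over all genes were. Beside Itgb2l and Itgb7, progenitor-like cells gave 3 of the 9, of 7 genes tested there and against 8.28% of all genes. Besides Lair1 these were Itgb2 at 1.58 (1.03 to 2.44), from 61.0 and 38.6 CPM, and Itga4 at 1.69 (1.01 to 2.87), from 44.0 and 26.1 CPM. Their log2 ratios of 0.66 and 0.76 became 0.28 and 0.08 with types from clusters, both within the fold. In thinned cells they were 2.21 and 0.21, and for Itgb2 0.41 with cells weighted equally and 0.52 with types assigned on thinned cells. Itga4 in late B-like cells stood at 94.6 (65.5 to 132) and 50.4 (30.8 to 77.8) CPM, a ratio of 1.88 (1.05 to 3.44) where 3.61% of 2021 genes were past the fold upwards, and its log2 ratio with types from clusters was 0.24. The other 33 pairs had ratios of 0.737 to 1.49.

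**Figure D5:**
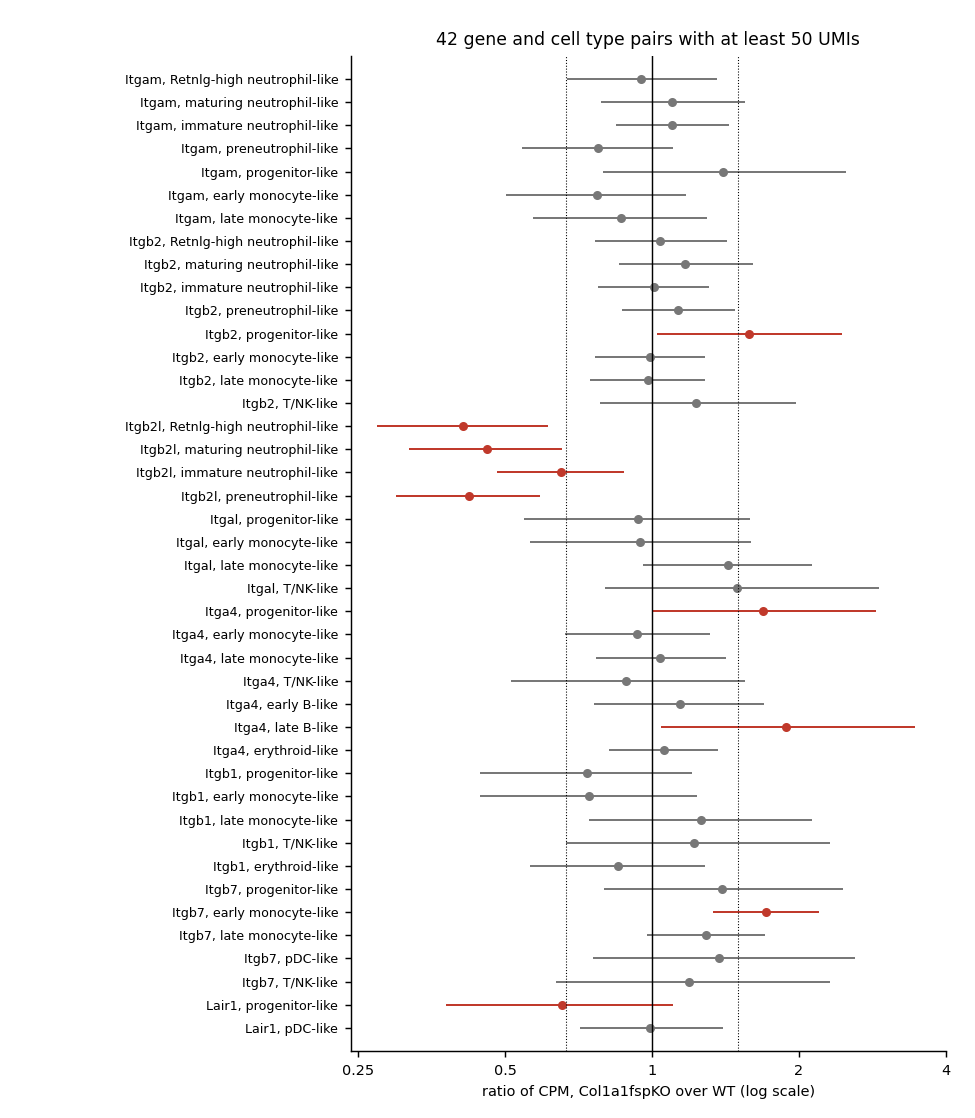
Ratio of CPM, Col1a1fspKO over WT (x axis, log scale), with exact binomial 95% intervals, for the 42 pairs of gene and cell type with at least 50 UMIs (y axis), with dotted lines at the fold and the 9 pairs past it in red. The 4 neutrophil-like pairs of Itgb2l lie at 0.410 to 0.651 and Itgb7 in early monocyte-like cells at 1.71.

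Other genes of the pathway, counted over all cells from lists of names, are set against the same 5.93%. Of 21 genes of integrin activation and its adaptors with enough UMIs 0 were past the fold, at a median ratio of 0.996. Among them Rap1a, the GTPase that switches integrins on, had 0.941 (0.891 to 0.994), its exchange factor Rasgrp2 1.05 (0.977 to 1.14) and Cd47, which associates with integrins, 0.945 (0.901 to 0.991). Of 9 kinases and other effectors downstream 0 were past it, at a median of 1.01, with Lyn at 1.08 (0.982 to 1.19). Of 3 other integrin chains, at a median of 1.06, 1 was past it, Itgb3 of the fibrinogen and vitronectin receptors at 0.602 (0.391 to 0.914). Of 7 ligands, at a median of 0.794, 1 was past it, Spp1 (osteopontin) at 0.616 (0.432 to 0.872). Within the fold, Fn1 (fibronectin) had 0.770 (0.712 to 0.833) and Thbs1 0.685 (0.547 to 0.855), while Icam4 had 1.01 (0.831 to 1.23) and Icam1 1.27 (0.880 to 1.85). In a list named for other collagen receptors, Ddr1 with 12 and 10 UMIs and Mrc1 with 8 and 4 were under the minimum. The 2 genes of that list with enough UMIs, Cd44 and Lilrb4a, are not taken as collagen receptors here. They were within the fold at 1.13 (1.02 to 1.24) and 1.2 (1.06 to 1.35), a median of 1.16. Of 5 genes of Lair1 signalling and collagen-like ligands 0 were past the fold, at a median of 1.01. Among them the phosphatase Ptpn6, which Lair1 recruits, had 0.948 (0.875 to 1.03).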

How the data were processed

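The authors deposited whole-number UMI counts for each library, produced by Cell Ranger (version not given in the sources used here). The submitters' processing notes name mm10 and Seurat 3.5.3. Here UMIs were summed per type and library and divided by the total to give CPM, with Python 3.11.15, scipy 1.17.1 and scanpy 1.11.5.

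Counts were log-normalized to 10000 UMIs per cell and markers scaled over cells. A cell took the lineage with the highest mean marker score if that reached 0.5, led by 0.25 and 3 markers were seen, then its highest stage. Doublets were kept, as Scrublet called 5 cells in each library. A count of 0 takes a floor of 3 UMIs. Likeness was computed for genes with at least 200 UMIs per library. All 10 genes are named, and from the pathway lists up to 4 genes by ratio and 4 by UMI count. Some results that this rule would name are not reported here.

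The genes and lists were chosen with earlier results of these data known, and the scoring thresholds after the data were seen. Calculations were tested on simulated data. Alternatives covered gating, scaling, cell filters, doublets, thinning, the UMI minimum and the fold.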

Additional observations from a re-analysis of the deposited data

How the results depend on the processing

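The log2 ratio of Col1a1fspKO over WT for Itgb2l stayed below 0 in each neutrophil-like stage under all 11 alternatives, from −1.70 to −0.41. Itgb7 in early monocyte-like cells stayed above 0, from 0.31 to 0.95, and Lair1 in pDC-like over progenitor-like cells ranged from 3.79 to 4.18 for Col1a1fspKO and from 3.17 to 3.43 for WT.

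Over all cells, 1 gene instead of 2 was past the fold with the stricter cell filter and in thinned cells, and 0 at a fold of 2. Of pairs within types, 3 instead of 9 were past it in thinned cells, which hold fewer UMIs, 16 with a minimum of 20 UMIs, 5 with a minimum of 100, 20 at the lower fold and 3 at a fold of 2. The highest type was shared for 8 genes instead of 5 in thinned cells. From preneutrophil-like to Retnlg-high cells, 1 gene instead of 2 was past the fold with types from clusters and 0 at a fold of 2. Clusters gave 69.4% of cells the type of the scores, and where calls moved with gating the cause was not tested. The alternatives that leave out single cells, and a minimum of 20 UMIs for that stage comparison, were chosen after seeing the data.

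No paired analysis was possible because each genotype has 1 library of pooled mice. Itgax and Itga6 had under 50 UMIs in every cell type, and the spread between mice is unknown.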

Other observations

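Groups of cells too small for the comparisons held these genes as well. The 12 and 20 basophil-like cells had Itgb7 at 125 (68.2 to 209) and 137 (79.8 to 219) CPM, with 9 of 14 UMIs of Col1a1fspKO in a single cell. Their Itgb1 stood at 71.3 (30.8 to 140.4) and 145 (86.0 to 229) CPM and their Lair1 at 53.5 (19.6 to 116) and 96.8 (50 to 169) CPM, and Itgb2l had 0 and 0 UMIs. The plasma-like cells, 6 and 3 in number, held 0 and 10 UMIs of Itgb7 and 4 and 5 of Itga4, in cells too few for a level.

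The 86 and 74 cells that met no type had Itgb2 at 61.2 and 59.0 CPM, Itga4 at 37.5 and 75.5 CPM and Itgb2l at 27.5 and 56.3 CPM.

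Over the 12 types, Itgb2l and Itga4 ran in opposite order, with Pearson's r of log2(CPM + 10) of −0.920 in Col1a1fspKO and −0.925 in WT, and Itga4 and Itgb1 ran together, at 0.883 and 0.775.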
